A study of Mus musculus with 6 samples.

Results

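Th9 cells are CD4 helper T cells named for the cytokine interleukin 9, and they form when naive CD4 T cells are activated in the presence of IL-4 and TGFβ. Interleukin 1β (IL-1β) is an inflammatory cytokine that signals through a receptor linked to NF-κB. T cells that meet antigen or inflammatory signals switch on immediate early genes and cytokine genes within a short time. Dividing T cells depend on sterol synthesis for new membrane, and interferons set up a programme of GTPases and antiviral proteins in nearly every cell type. The comparison described here asked how Th9 cells that had seen IL-1β in culture differ from plain Th9 cells after both had spent 1 week in mice.

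It rests on 2 of the 6 libraries of the study, 1 per group. Wild-type naive CD4 T cells of C57/Bl6j mice aged 7 weeks were kept for 3 days on plates coated with CD3 and CD28 reagents. Both groups received 20 ng/ml IL-4, 2 ng/ml TGFβ and an antibody that blocks interferon γ, and only the Th9+IL-1β group received 10 ng/ml IL-1β. The CD45.2 cells were then injected into CD45.1 mice and recovered by sorting after 1 week, and poly(A) RNA was sequenced. The sources used here do not give the tissue they were sorted from, the recipients' age, their number or whether cells were pooled. Below, the library of the Th9+IL-1β cells recovered from mice is called the primed library and that of the Th9 cells recovered from mice the plain library. The remaining libraries include 2 from poly(A) RNA at day 3 of culture, with and without IL-1β. Their values are given beside some of the in vivo values as the level before transfer.

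Values are the authors' FPKM, fragment values corrected for transcript length and for how many fragments a library mapped, and every value is followed, where shown in parentheses, by the lower and upper bound that the files give for it. Of 23091 gene symbols, 8639 were compared, those that reached 5 FPKM in either library. The log2 ratio is that of FPKM + 1, primed over plain, which understates the difference of low genes. Genes count as higher or lower here where this ratio is 2-fold or more and the deposited intervals are apart. Because each group is 1 library, there is no replicate and no test, and higher and lower describe these 2 libraries only. The interval covers uncertainty within a library, not between animals. In the 2 in vivo libraries 259 (plain) and 319 (primed) entries carry an FPKM that exceeds their own upper bound, and those values are printed as they stand.

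By this rule 538 genes (6.23% of those compared) were higher in the primed library and 301 (3.48%) were lower. The 7301 genes that reached 5 FPKM in each library had a median log2 ratio of 0.01, so the 2 libraries were on nearly the same scale. The higher and lower genes differed in where they stood before transfer. Of the 538 higher genes, 219 (40.7%) were under 1 FPKM in both day 3 libraries and 138 (25.7%) were at 5 FPKM or more in both. Of the 301 lower genes, 0 were under 1 FPKM in both and 251 (83.4%) were at 5 FPKM or more in both. Among all genes compared the shares were 3.79% and 80.2%. When only the 6930 genes at 5 FPKM or more in both day 3 libraries are considered, 138 (1.99%) were higher and 251 (3.62%) were lower. Both backgrounds are used below, the second being the one for genes that the cultured cells already expressed.

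**Figure D1:**
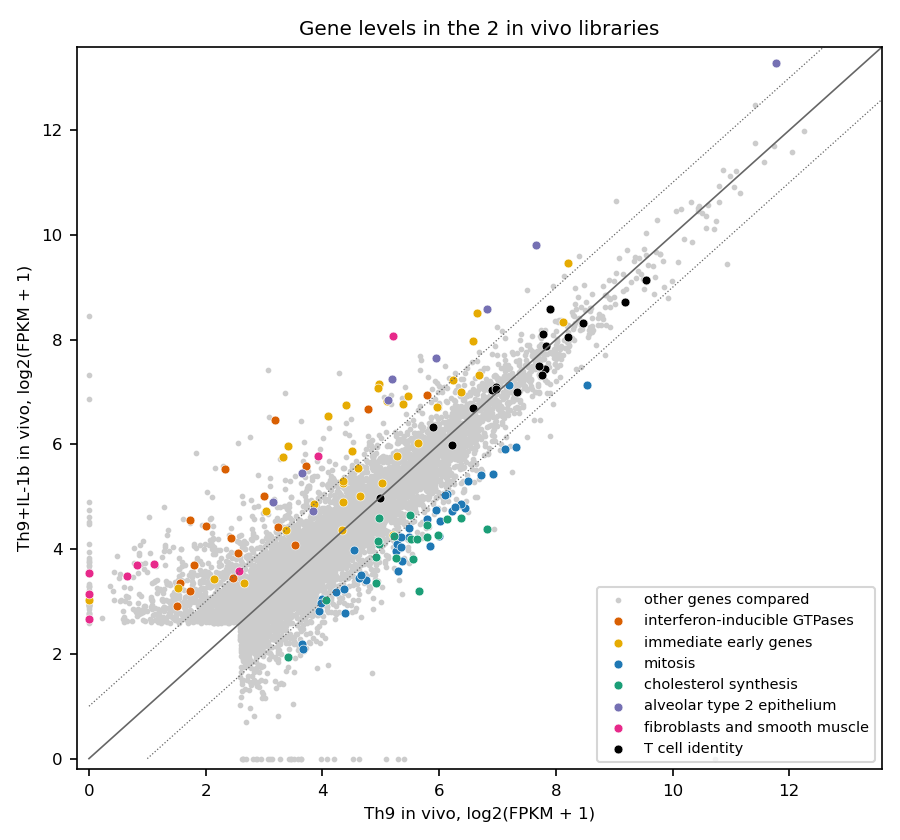
Level of each of the 8639 genes compared, log2(FPKM + 1), in the plain library (x axis) and the primed library (y axis), with 1 point per gene; the solid line marks equal levels and the dotted lines a 2-fold difference. Interferon-inducible GTPases, immediate early genes and lung cell markers lie above the lines or near them, mitosis and cholesterol synthesis genes below, and T cell identity genes along the solid line.

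The sorted cells carried the transcripts of CD4 T cells at similar levels in both libraries. None of 18 T cell identity genes was counted (0 of 18 higher and 0 lower), and their median log2 ratio was -0.08, between -0.47 for Cd2 and 0.68 for Lat. The CD3 chain gene Cd3e stood at 318 FPKM (244 to 304) against 353 (277 to 339). The coreceptor gene Cd4 stood at 172 FPKM (148 to 183) against 223 (196 to 240.4), and Cd8a and the natural killer markers gave a summed level of 13.4 against 18.5 FPKM over that list of 8, with 0 of 1 compared members counted. Summed over the 18 identity genes, the level was 3761 FPKM in the primed library and 4088 in the plain one, beside 4300 and 4183 FPKM at day 3 with and without IL-1β.

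Transcripts of lung cells stood beside those of T cells in both in vivo libraries, and most were higher in the primed one. Of 9 markers of alveolar type 2 cells, the epithelial cells that secrete surfactant, 8 were higher, with a median log2 ratio of 1.74. The surfactant protein gene Sftpb stood at 899.9 FPKM (753 to 839) against 202 (164 to 208). The phosphate transporter gene Slc34a2 stood at 152 against 35.6 FPKM and Sftpa1 at 384 against 113 FPKM. The member not counted was Abca3, a lipid transporter gene, at 25.4 against 13.3 FPKM, which is also the member with the highest level in the day 3 cells without IL-1β (2.56 and 7.15 FPKM with and without IL-1β). The summed level of the 9 was 11859 FPKM in the primed and 3990 FPKM in the plain library, against 13.2 and 14.6 FPKM at day 3. Both in vivo sums lie far above those of the cultured cells.

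Fibroblast and smooth muscle markers showed the largest median of all lists, 2.67, with 8 of 9 compared members higher (the median was 2.22 without members listed at 0). This rank depends on the pseudocount. With one of 5 the median was 1.45, below the 1.62 of alveolar type 2 markers. Mgp, a matrix protein gene, stood at 266 FPKM (134 to 202) against 36.0 (13.9 to 42.9) and was listed at 0 in both day 3 libraries. The collagen genes Col1a2 and Col3a1 stood at 10.2 against 0.566 FPKM and 12.1 against 1.17 FPKM. Dcn, Pdgfra and Tagln were listed at 0 in the plain library and in both day 3 libraries, so no fold is given for them. Their levels in the primed library were 7.89, 5.37 and 10.6 FPKM. Summed over the 12 markers of this list, the level was 394.5 FPKM against 59.4 FPKM, and under 2 FPKM at day 3. Of the endothelial markers 5 of 10 were higher, among them Ramp2 (55.5 against 12.0 FPKM), Cdh5 (31.5 against 12.0 FPKM) and Plvap (36.4 against 16.0 FPKM, not counted with a pseudocount of 5), while Pecam1 (34.5 against 21.3 FPKM) was not counted.

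Markers of airway epithelium had 2 of 6 members higher, Scgb1a1 and Cyp2f2, and those of alveolar type 1 cells 2 of 4, Ager and Cav1. Macrophage and monocyte markers had 4 of 12 higher, with a summed level of 2024 against 742 FPKM. Of these, Csf1r, the receptor of macrophage colony-stimulating factor, stood at 10.3 FPKM (7.51 to 12.9) against 1.91 (0.896 to 3.05), and Lyz1 at 123 against 35.0 FPKM, whereas Ctss (77.2 against 66.9 FPKM), Cd68 (13.4 against 10.8 FPKM) and Ear2 (11.6 against 14.4 FPKM) were not counted. Neutrophil markers did not follow this order as a list, with 4 ratios above 0 and 5 below, from -0.93 to 1.88. Of 8 compared, 0 were counted, and the calprotectin gene S100a8 stood at 107 FPKM (25.9 to 72.5) against 107 (30.1 to 81.5), well above its 3.15 and 2.91 FPKM at day 3. B cell markers had 0 of 3 higher and 1 lower (Cd79b). The summed B cell level was 28.3 against 44.6 FPKM.

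**Figure D2:**
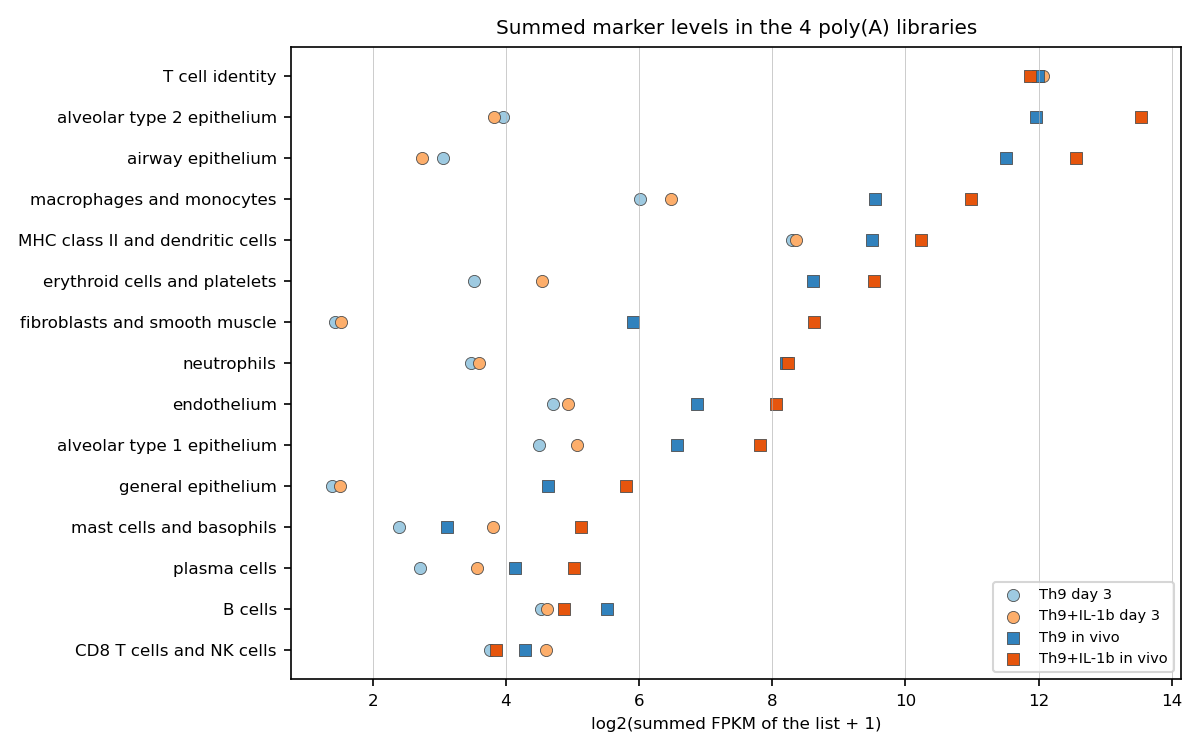
Summed FPKM of each marker list (x axis, log2 of the sum + 1) in the 4 poly(A) libraries, with circles for the day 3 libraries and squares for the in vivo ones, 1 library per symbol. The epithelial, stromal, endothelial and macrophage sums lie far right of the day 3 circles in both in vivo libraries and further right in the primed one, while neutrophil markers (302 against 294 FPKM) and T cell identity genes (3761 against 4088 FPKM) nearly coincide.

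Such RNA can be followed through genes that the cultured cells barely expressed, which give only part of it. Genes under 1 FPKM in both day 3 libraries made up 3.04% of the summed FPKM in the primed and 1.48% in the plain library, against 0.146% and 0.176% at day 3. Sftpc and Scgb1a1, which were above 1 FPKM at day 3 and are not in these shares, took a further 2.72% and 0.972% and a further 1.55% and 0.757%. In bulk RNA, fewer cells of a type and less RNA per cell cannot be told apart. For the gene groups below that other cell types also express, the part of this RNA in the difference was not tested. Levels in the day 3 libraries are given beside some genes of these groups only.

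Interferon-inducible GTPases were higher in the primed library nearly throughout. These proteins, the guanylate-binding proteins (Gbp genes) and the immunity-related GTPases (Irgm1, Igtp, Iigp1 and relatives), are induced above all by interferon γ and attack the vacuoles of intracellular pathogens. Of 17 compared, 15 were higher and 0 were lower, and the 20 that reached 1 FPKM had a median log2 ratio of 1.78. Gbp2 (mm9 chromosome 3, 142283627 to 142300972) reached 87.1 FPKM (70.8 to 95.4) against 8.13 (5.09 to 11.0), beside 16.9 and 7.11 FPKM at day 3 with and without IL-1β. Tgtp2 stood at 45.0 FPKM (35.8 to 53.6) against 4.03 (1.97 to 6.46), with 9.62 and 6.23 FPKM at day 3. In both genes the primed library was the high one of all 4, and the plain library lay below the day 3 library with IL-1β.

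Gbp7 stood at 20.6 FPKM (17.3 to 24.1) against 3.01 (1.70 to 4.32), and Gbp4 at 47.0 FPKM (41.3 to 52.7) against 12.1 (9.33 to 15.1). The immunity-related GTPase genes Irgm1 and Igtp stood at 31.1 against 6.97 FPKM and 123 against 54.3 FPKM. Ifi47, which was already abundant at day 3 (57.2 and 49.2 FPKM), stood at 101 FPKM (86.1 to 115) against 26.5 (19.3 to 33.8). The plain library was thus below both day 3 libraries for Ifi47 and Igtp (72.5 and 60.5 FPKM at day 3) as well as below the primed one. Gbp3, Gbp5, Gbp6, Gbp9, Gbp11, Iigp1, Irgm2 and Gvin1 were higher with log2 ratios from 1.18 (Irgm2) to 2.82 (Iigp1). Gbp8 (15.9 against 10.6 FPKM) and Gm12250 (9.93 against 4.50 FPKM) were not counted. With a pseudocount of 5, which shrinks the ratios of low genes, Gbp3, Gbp9, Irgm2 and Gvin1 were no longer counted.

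Of the 8 GTPase genes at 5 FPKM or more in both day 3 libraries, 7 were higher, against 1.99% of all such genes. The summed level of the 22 GTPase genes in the files was 598 FPKM in the primed library, 159.7 in the plain one, and 231 and 185 at day 3 with and without IL-1β.

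The promoters of these genes are shown because the letters of the interferon response element recur in them. The element is bound by STAT and IRF proteins, and its core was searched here as GAAANNGAA on both strands in the 250 bases before each start. Of the 15 higher GTPase genes, 9 had an entry in the RefSeq promoter table (build GRCm38.p6), with 10 promoters, of which 8 (80.0%) held the core, against 7.13% of all 32851 promoters. In the antiviral genes counted as higher (below), 3 of 7 promoters (42.9%) held it, and the shares were 0 of 10 for lower cholesterol synthesis genes, 0 of 12 for lower DNA replication genes, 2 of 32 (6.25%) for lower mitosis genes and 1 of 14 (7.14%) for higher immediate early genes. A match is a description of the letters and not evidence of binding. The 3 promoters with the largest ratios among the matched GTPase genes are given 5′ to 3′ in the direction of transcription, with the core in capitals. Gbp2 lies at chr3:142620413-142620662 on the plus strand, Tgtp2 at chr11:49064213-49064462 on the minus strand and Gbp7 at chr3:142530086-142530335 on the plus strand, all on GRCm38.p6, and the cores end 49, 61 and 43 bases before the start.
Gbp2: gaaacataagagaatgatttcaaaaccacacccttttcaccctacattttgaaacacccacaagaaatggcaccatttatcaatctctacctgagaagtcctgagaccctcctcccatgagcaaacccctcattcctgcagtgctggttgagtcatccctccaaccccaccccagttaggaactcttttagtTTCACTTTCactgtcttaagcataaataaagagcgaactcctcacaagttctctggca
Tgtp2: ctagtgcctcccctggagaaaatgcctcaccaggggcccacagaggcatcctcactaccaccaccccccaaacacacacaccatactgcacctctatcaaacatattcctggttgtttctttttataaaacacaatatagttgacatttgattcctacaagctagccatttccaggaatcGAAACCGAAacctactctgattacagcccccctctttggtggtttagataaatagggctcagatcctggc
Gbp7: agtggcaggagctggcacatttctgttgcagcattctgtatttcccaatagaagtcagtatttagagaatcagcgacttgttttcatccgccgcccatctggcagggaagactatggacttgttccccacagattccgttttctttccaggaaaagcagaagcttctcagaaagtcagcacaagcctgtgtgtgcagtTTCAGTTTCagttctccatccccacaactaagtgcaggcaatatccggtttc
In Gbp2 and Gbp7 the core is read on the opposite strand, and in Tgtp2 on the strand shown.

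Antiviral interferon-stimulated genes, which both interferon classes induce, were higher in smaller part. Of 25 compared, 9 were higher and 0 lower, with a median of 0.85. Ifit3, whose family binds viral RNA, stood at 10.6 FPKM (6.43 to 14.6) against 0.787 (0 to 1.74), and Ifit1 at 9.35 against 1.16 FPKM. Rtp4 stood at 21.0 FPKM (13.3 to 28.4) against 3.11 (0.883 to 5.30), with 1.33 and 1.21 FPKM at day 3. Xaf1, Ifi203, Samd9l, Oasl2, Parp14 and Parp9 were the other members counted, between 1.13 (Parp9) and 1.94 (Xaf1) on the log2 scale, and of these Xaf1, Parp14 and Parp9 were not counted with the pseudocount of 5. The most abundant members were not counted and lay on both sides of 0. Ifi27l2a stood at 199 against 249 FPKM, Ifitm2 at 127 against 152 FPKM, Zbp1 at 83.9 against 43.3 FPKM and Ifitm3 at 74.8 against 36.8 FPKM. Isg15, a ubiquitin-like modifier, stood at 16.0 FPKM (5.37 to 24.2) against 5.31 (0.919 to 9.19), with overlapping intervals. Only 1 of the 13 members at 5 FPKM or more in both day 3 libraries was counted (Parp9). The other higher antiviral genes were under 5 FPKM in at least 1 day 3 library, and 0 were under 1 FPKM in both.

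Signalling components upstream of these genes showed a few differences. Of 26 regulators of interferon and JAK-STAT signalling, 5 were higher and 0 lower, with a median of 0.16. Irf9, the DNA-binding subunit of the factor that type I interferon activates, stood at 40.1 FPKM (32.6 to 47.8) against 17.1 (12.2 to 22.1). Ifngr1, the ligand-binding chain of the interferon γ receptor, stood at 138 FPKM (111 to 142) against 62.5 (48.7 to 71.8), beside 61.0 and 51.8 FPKM at day 3. Irf1 and Irf7 were higher as well. Ifngr2 (52.4 against 48.8 FPKM), Stat2 (22.4 against 20.0 FPKM), Jak1 (76.3 against 71.2 FPKM) and the feedback inhibitor gene Socs1 (281 against 392 FPKM) were not counted. In the antigen-presentation group, H2-T23, which encodes a nonclassical class I molecule, was the single higher gene of 18, a share near the 6.23% of all genes. It stood at 216 FPKM (159.8 to 208) against 101 (72.8 to 106). The largest log2 ratio of this group, 1.39, belonged to another member, which was not counted because its intervals overlap. The immunoproteasome subunit gene Psmb9 went the other way at 105 against 173 FPKM without being counted, and B2m stood at 3473 against 2711 FPKM.

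**Figure D3:**
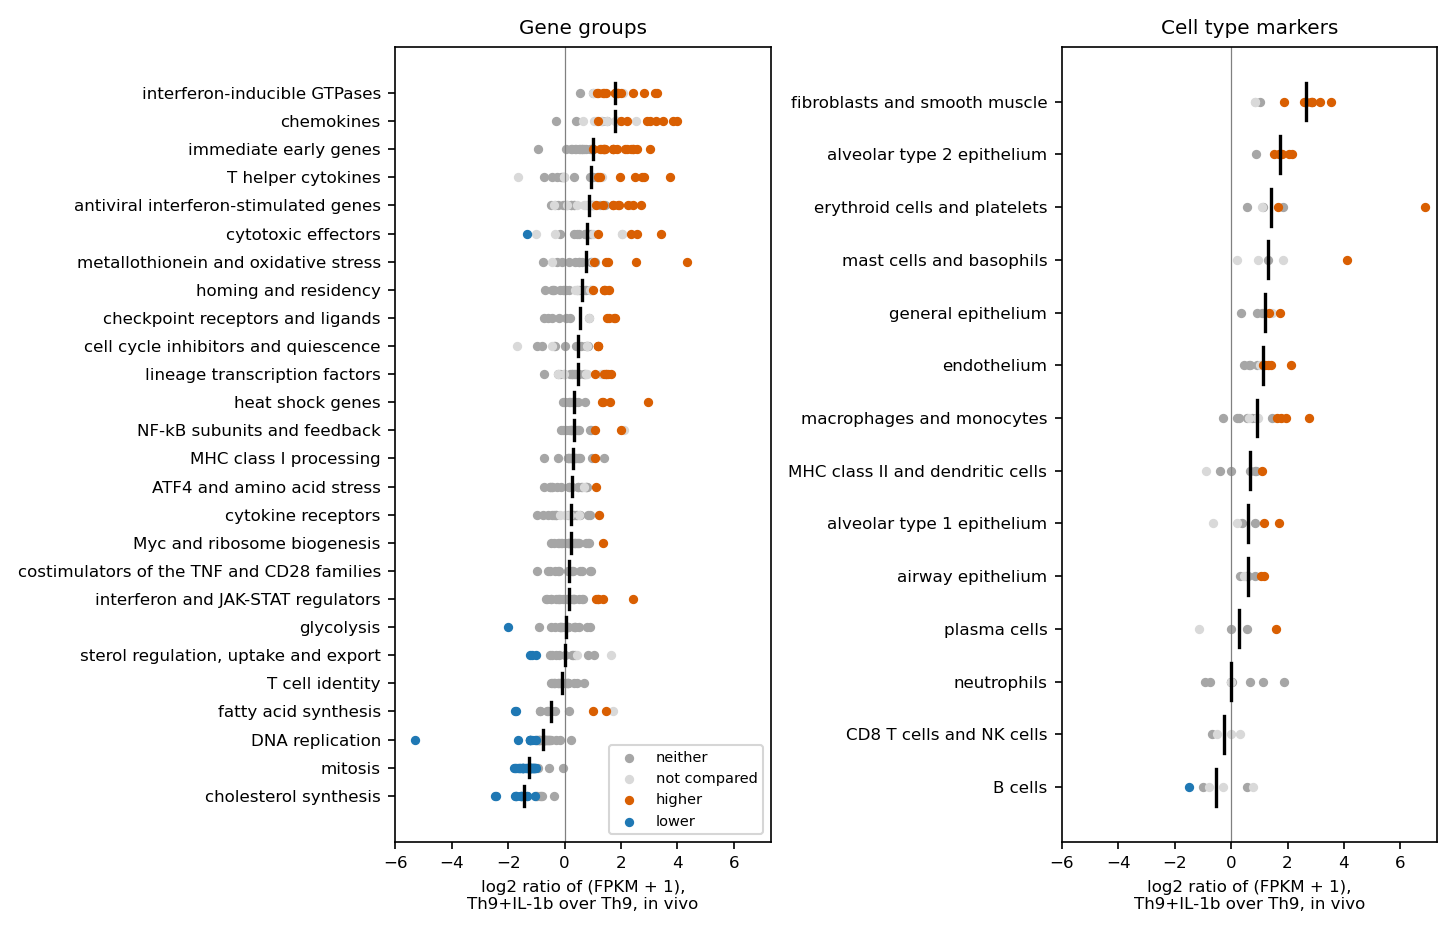
Log2 ratio of (FPKM + 1), primed over plain, of each list member that reached 1 FPKM in 1 of the 2 libraries, for gene groups (left) and cell type markers (right), with 1 point per gene; orange points were counted as higher, blue as lower, dark grey as neither, and light grey points were under 5 FPKM in both; black bars are list medians. GTPases (median 1.78) and fibroblast markers (2.67) lie right of 0, mitosis (-1.26) and cholesterol synthesis genes (-1.43) left of it, and ratios beyond 5 in either direction belong to genes listed at 0 in 1 library.

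Cytokine genes formed a mixed group in which no member was counted as lower. Of the 24 that reached 1 FPKM, 14 ratios were above 0 and 10 below, from -1.65 to 3.75. Of 19 compared T helper cytokine genes 7 were higher, with a median of 0.94 over 24. Besides Ifng, Il10, Il17a, Il5, Il3 and Csf2, these included Ltb, which encodes lymphotoxin β, at 302 FPKM (214 to 271) against 126 (86.3 to 124). Ltb was the most abundant cytokine gene of the primed library and stood at 162 and 129 FPKM at day 3. Il13, the type 2 cytokine gene next to Il4, stood at 163 FPKM (116 to 166) against 86.4 (59.3 to 91.6), and Tnf at 40.1 FPKM (28.0 to 48.9) against 20.1 (12.9 to 26.6). Neither reached 2-fold. The remaining abundant members were level in both libraries, with Il24 at 154 against 164 FPKM, Tgfb1 at 192 against 211 FPKM, Lta at 92.0 against 72.5 FPKM, Lif at 45.8 against 46.4 FPKM and Osm at 23.7 against 24.9 FPKM. Il2 stood at 10.8 FPKM (4.31 to 16.5) against 4.90 (1.48 to 8.11), with intervals that overlap.

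Chemokine genes had 9 of 14 compared members higher and 0 lower, with a median of 1.78. Xcl1 (mm9 chromosome 1, 166861779 to 166865641), the lymphotactin gene that activated T cells express to attract dendritic cells, reached 56.2 FPKM (18.9 to 51.2) against 2.57 (0 to 4.15). Its level was 22.1 and 11.1 FPKM at day 3, so that the primed library was the highest and the plain library the lowest of the 4. Ccl3 and Ccl4, which encode chemokines that attract macrophages and effector T cells, stood at 78.9 FPKM (42.8 to 80.5) against 16.2 (7.04 to 22.0) and 64.4 FPKM (29.7 to 69.7) against 4.88 (1.05 to 8.42), beside 14.4 and 5.64 and 19.8 and 8.46 FPKM at day 3. Ccl22, a ligand of CCR4, stood at 143 FPKM (112 to 145) against 61.6 (46.4 to 69.8). These 4 were all the higher members among the 5 that reached 5 FPKM in both day 3 libraries, and the fifth, Ccl17 (38.4 against 9.86 FPKM), had overlapping intervals.

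The remaining higher chemokine genes were under 5 FPKM in at least 1 day 3 library. Cxcl15, a chemokine of lung epithelium, stood at 204 FPKM (168 to 209) against 50.2 (38.5 to 57.8) and at 0.315 and 0 FPKM at day 3. Cxcl14 stood at 9.88 against 0.436 FPKM and was listed at 0 at day 3. Cxcl3 stood at 16.8 against 0.890 FPKM, beside 5.97 and 0.681 FPKM at day 3, while Ccl1 and the interferon-induced Cxcl10 reached 13.2 and 7.16 FPKM in the primed library and were listed at 0 in the plain one. Cxcl2, a neutrophil attractant, was close in the 2 libraries at 21.9 against 16.3 FPKM, and Ccl6 stood at 14.8 against 18.5 FPKM. The marker lists that stood higher in the primed library include epithelium and macrophages, which also make chemokines, and their part in these 9 genes was not tested.

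Immediate early genes, which cells transcribe within minutes of a stimulus, included 17 higher members of 35, 0 lower, and 34 ratios above 0. Their median was 1.01. Jun, a subunit of the AP-1 transcription factor, stood at 134 FPKM (115 to 144) against 29.9 (23.8 to 36.0), beside 4.06 and 5.55 FPKM at day 3, so it was above the cultured cells in both in vivo libraries and highest in the primed one. Zfp36, which encodes an mRNA-decay factor, stood at 364 FPKM (295 to 359.6) against 99.8 (77.2 to 111), with 59.7 and 49.8 FPKM at day 3. Junb was the most abundant member at 703 FPKM (583 to 659.7) against 296 (243 to 298). Gadd45b (91.9 against 16.1 FPKM) and Ppp1r15a (107 against 20.2 FPKM), both stress-inducible, had log2 ratios of 2.44 and 2.34. Egr1, a zinc-finger factor induced by growth factors and T cell receptor signals, stood at 112 FPKM (95.2 to 120.5) against 33.5 (26.7 to 40.0).

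The orphan nuclear receptor genes Nr4a1 and Nr4a2 stood at 252 against 94.5 FPKM and 8.53 against 1.89 FPKM. The dual-specificity phosphatase genes did not move as a set. Dusp1 (120.4 against 43.5 FPKM) and Dusp2 (108 against 40.6 FPKM) were higher, Dusp5 (127 against 82.1 FPKM) and Dusp6 (29.0 against 19.5 FPKM) were not counted, and Dusp4 stood at 18.3 FPKM (13.1 to 23.4) against 36.1 (27.8 to 44.1), the only ratio below 0 in the list. Klf4 (25.7 against 7.17 FPKM), Ier5 (57.6 against 21.7 FPKM), Atf3 (28.2 against 13.6 FPKM) and Fosl1, which was listed at 0 in the plain library and reached 7.13 FPKM in the primed one, completed the higher members together with Fos, Fosb and Cd69. Jund (324 against 279 FPKM) and Fosl2 (19.6 against 19.1 FPKM) were level. Of the 29 members at 5 FPKM or more in both day 3 libraries, 12 were higher, against 1.99% of all such genes. The AP-1 core TGANTCA was found in 0 of 14 matched promoters of the higher members and in 4 of 7 (57.1%) of the higher antiviral genes, against 6.75% of all promoters.

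Stress and NF-κB genes differed in part. Heat shock genes had 4 of 14 members higher, beside 6.23% of all genes compared. They were the inducible Hspa1a (14.96 against 5.42 FPKM), Hspa1b (23.1 against 8.36 FPKM), Hsph1 (22.8 against 6.85 FPKM) and Hspb1 (22.8 against 2.07 FPKM), Hspa1a not with the pseudocount of 5. The constitutive chaperone genes Hspa8 (332 against 332 FPKM) and Hsp90ab1 (814 against 845 FPKM) were level. Of the 10 members at 5 FPKM or more in both day 3 libraries, 1 was higher, against 1.99% of all such genes. Another higher member, 1 in all, was under 1 FPKM in both. Among NF-κB subunits and feedback genes, 2 of 18 were higher, beside 6.23% of all genes compared. They were Tnfaip3 and Nfkbia, the latter encoding IκBα, at 285 FPKM (223 to 277) against 134 (103 to 142). The subunit genes Nfkb1 (79.2 against 70.8 FPKM), Nfkb2 (62.8 against 49.8 FPKM), Rela (69.9 against 49.2 FPKM) and Rel (11.3 against 8.57 FPKM) were not counted.

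Genes of T cell trafficking and fate had smaller counts. Of 22 homing and residency genes 5 were higher and 0 lower. Klf2, a transcription factor that maintains the exit receptor S1pr1, stood at 181 FPKM (143 to 182) against 68.0 (51.6 to 75.4), beside 52.2 and 48.9 FPKM at day 3. Klf3 (26.9 against 8.35 FPKM), Cxcr4 (35.0 against 12.3 FPKM), Cxcr6 (8.24 against 2.51 FPKM) and Rgs1 (60.8 against 29.8 FPKM) were the others, Cxcr6 and Rgs1 not with the pseudocount of 5. The receptor genes S1pr1 (78.9 against 55.7 FPKM) and Ccr7 (175 against 88.1 FPKM) lay on the same side without being counted, and the Th2-associated receptor genes Ccr4 (34.9 against 57.9 FPKM) and Ccr8 (134 against 174 FPKM) on the other.

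Of 20 lineage transcription factor genes, 6 were higher and 0 lower, all at low or moderate levels, beside 6.23% of all genes compared that were higher. Among the 14 at 5 FPKM or more in both day 3 libraries, 2 were higher, against 1.99% of all such genes. A further higher gene, 1 in all, was under 1 FPKM in both. Smad7, a feedback inhibitor of TGFβ signalling, stood at 30.8 FPKM (25.6 to 35.8) against 10.1 (7.51 to 12.5). Etv5 stood at 14.96 FPKM (11.5 to 18.6) against 4.06 (2.36 to 5.64), Maf at 9.77 against 2.85 FPKM, Bcl6, the follicular helper factor, at 8.03 against 2.28 FPKM, and Eomes, a T-box factor of effector and memory cells, at 10.8 against 4.59 FPKM. Foxp3 was the sixth. With the pseudocount of 5, Smad7 and Etv5 alone were still counted. Tbx21, the Th1 factor, stood at 6.47 FPKM (3.98 to 9.01) against 3.59 (1.63 to 5.44) and was not counted. Tcf7 (238 against 184 FPKM), Lef1 (115 against 97.1 FPKM) and Id2 (128 against 76.2 FPKM), abundant factors of naive, memory and effector cells, were not counted either. In the cytokine receptor list 1 of 18 was higher (Csf2rb at 5.02 against 1.61 FPKM), a share close to the 6.23% of all genes. Il2ra (276 against 377 FPKM), Il4ra (141 against 238 FPKM) and Il2rg (447 against 331 FPKM) were not counted.

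**Figure D4:**
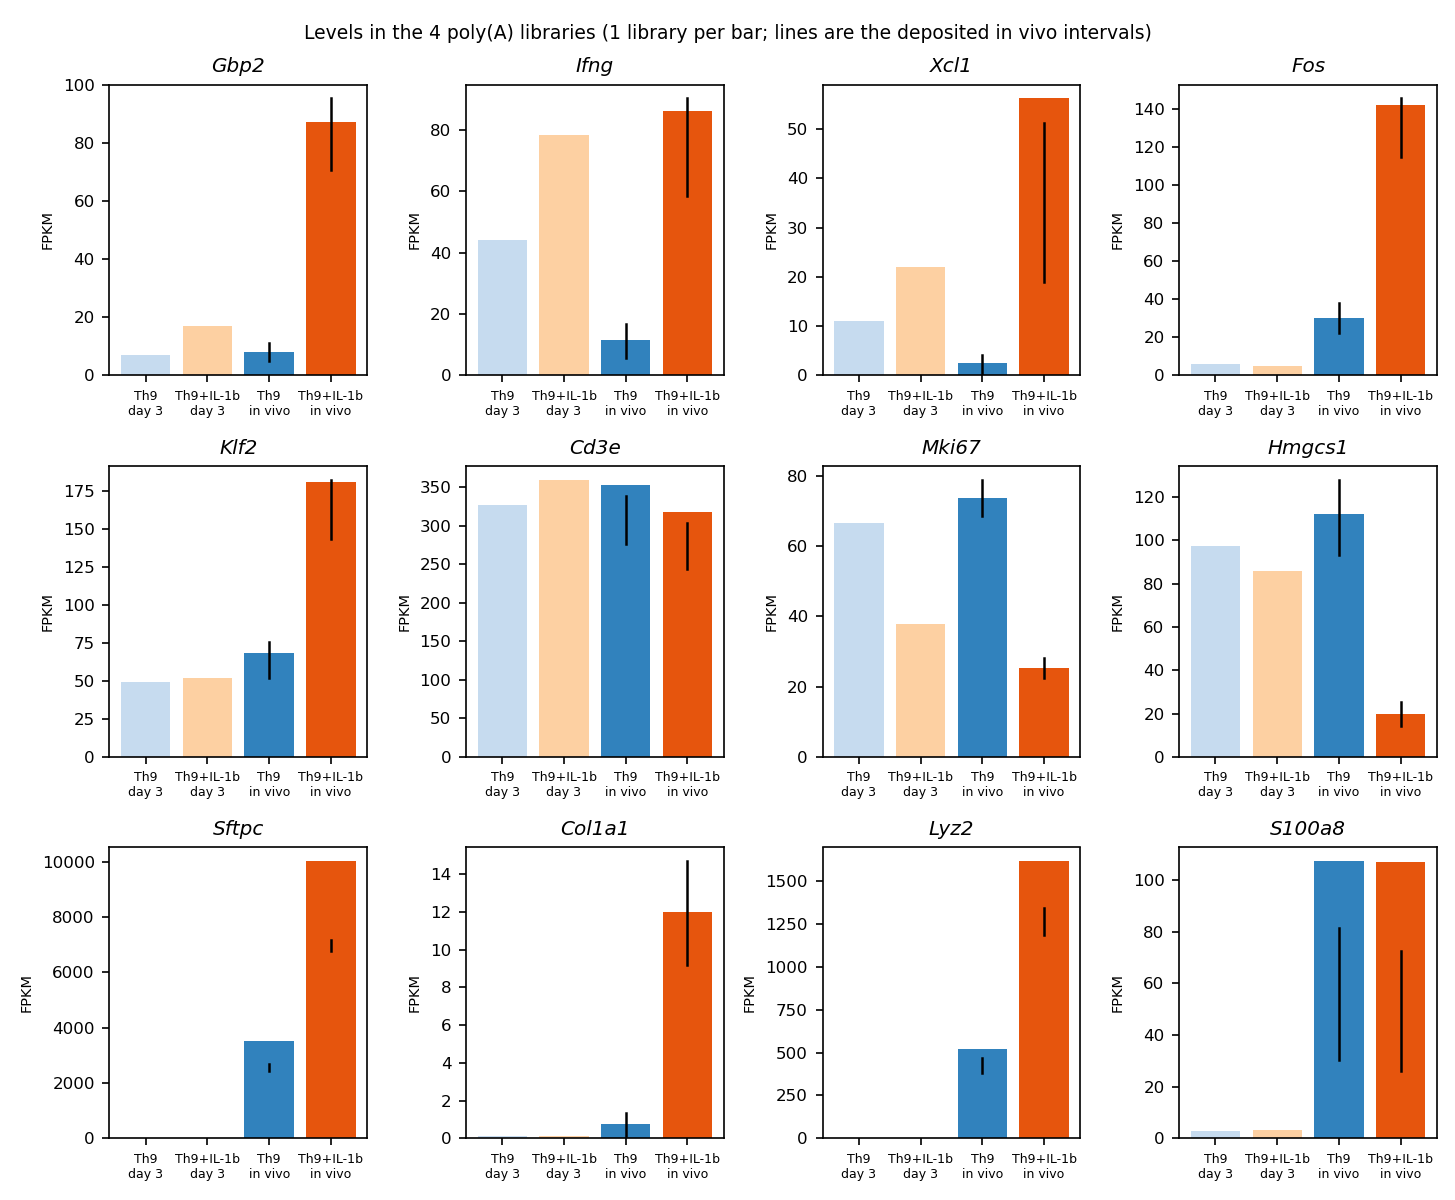
FPKM of 12 genes in the 4 poly(A) libraries, 1 library per bar, with the deposited interval of each in vivo value as a line, which lies below the top of the bar where the FPKM exceeds its own upper bound. Gbp2, Xcl1, Fos and Klf2 are highest in the primed library, Ifng is low in the plain library alone, Mki67 and Hmgcs1 are lowest in the primed library, Cd3e is level, Sftpc, Col1a1 and Lyz2 appear in vivo and are higher in the primed library, and S100a8 appears equally in both.

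Effector and checkpoint genes included several higher members. Besides Gzma and Gzmb, the granzyme genes Gzmc and Gzmd stood at 65.3 FPKM (38.4 to 70.3) against 11.9 (4.46 to 17.9) and 10.8 FPKM (4.33 to 16.6) against 0.986 (0 to 2.22), with 24.8 and 25.7 and 1.65 and 0 FPKM at day 3. In all 4 of 15 cytotoxic effector genes were higher and 1 was lower, Serpinb6b, a serine protease inhibitor gene, at 26.1 FPKM (17.8 to 34.2) against 67.1 (51.2 to 74.0). The genes Prf1 (7.50 against 3.43 FPKM), Nkg7 (67.3 against 38.3 FPKM) and Srgn (687 against 768 FPKM), for perforin, a granule membrane protein and the granule proteoglycan, were not counted. Granzyme C and D belong to a cluster of near-identical genes, so that reads can be split between them and their single values are uncertain.

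Among 11 checkpoint genes, Pdcd1, which encodes the inhibitory receptor PD-1, stood at 16.5 FPKM (10.9 to 22.4) against 4.91 (2.16 to 7.56), and its ligand gene Cd274 (PD-L1), also an interferon-induced gene, at 30.2 FPKM (24.4 to 35.9) against 7.96 (5.54 to 10.5). Havcr2 (TIM-3) stood at 7.11 against 1.39 FPKM and Nt5e (CD73) at 6.50 against 1.66 FPKM. These 4 were higher, Havcr2 and Nt5e not with the pseudocount of 5. Ctla4 (54.3 against 82.2 FPKM) and Lag3 (35.1 against 59.7 FPKM) lay on the opposite side and were not counted, and Tigit stood at 19.0 against 21.9 FPKM. None of 15 costimulator genes of the TNF and CD28 families was counted, with Cd27 at 112 against 57.4 FPKM and Tnfrsf4 (OX40) at 311 against 465 FPKM.

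Mitosis genes were lower almost without exception, and this was the largest count of any list. Of 38 compared, 35 were lower and 0 higher, all 38 ratios were below 0, and the median was -1.26. Foxm1, the transcription factor that drives the mitotic programme, stood at 15.6 FPKM (12.5 to 18.7) against 56.7 (50.3 to 63.0), which is -1.79 on the log2 scale. The kinetochore gene Nuf2 stood at 11.0 FPKM (7.03 to 14.9) against 38.4 (29.8 to 45.6). Of the cyclin genes, Ccnb2 stood at 26.5 FPKM (17.1 to 34.2) against 86.0 (63.6 to 92.9), Ccnb1 at 5.90 against 20.0 FPKM and Ccna2 at 42.5 FPKM (35.9 to 49.4) against 120.5 (108 to 133), and their kinase partner Cdk1 at 17.9 FPKM (13.2 to 22.7) against 43.6 (35.0 to 51.3). The mitotic kinase genes Aurkb (28.1 against 82.4 FPKM), Aurka (20.0 against 43.6 FPKM) and Plk1 (26.0 against 60.7 FPKM) and the ubiquitin-conjugating enzyme gene Ube2c (139 against 370.1 FPKM), the most abundant member, were lower as well. The 3 not counted were Smc4 (139 against 146 FPKM), Ndc80 (14.9 against 22.4 FPKM) and Bub1 (7.29 against 14.9 FPKM). With the pseudocount of 5, 10 of the 35 were no longer counted, Aurka, Cenpe, Cenpf, Ect2, Kif15, Kif20a, Kif2c, Kif4, Ncapg and Nusap1.

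These genes were expressed before transfer, and the plain library was near that level. Of the 37 mitosis genes at 5 FPKM or more in both day 3 libraries, 34 were lower, against 3.62% of all such genes. Summed over the list, the level was 1017 FPKM in the primed library, 2422 in the plain one, and 2303 and 2497 FPKM at day 3 with and without IL-1β. The primed library was thus the low one of 4. The values do not show whether fewer cells were in mitosis or each held less of this RNA.

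DNA replication genes pointed the same way with smaller differences. Of 37, 9 were lower and 0 higher, 36 ratios were below 0, and the median was -0.75. Tk1, thymidine kinase, stood at 30.8 FPKM (20.3 to 41.0) against 99.7 (74.1 to 108), and Rrm2, a subunit of ribonucleotide reductase, at 88.0 FPKM (69.8 to 96.5) against 197 (163 to 203). The DNA ligase gene Lig1 stood at 43.9 FPKM (37.1 to 50.7) against 105 (94.7 to 116), the licensing factor gene Cdc6 at 6.16 against 15.8 FPKM, and the E2F genes E2f1 and E2f2 at 11.9 against 29.3 FPKM and 17.0 against 36.1 FPKM. Chaf1a (13.7 against 33.2 FPKM) and Rpa2 (21.2 against 43.9 FPKM) were also lower, and of these genes Cdc6, E2f2 and Rpa2 were not counted with the pseudocount of 5. The ninth, Rfc4, was listed at 0 in the primed library and stood at 38.3 FPKM in the plain one, and it overlaps Eif4a2 (122 against 91.5 FPKM), so its value is uncertain. The helicase genes Mcm2 to Mcm7 fell short of the rule with log2 ratios between -0.73 (Mcm7) and -0.53 (Mcm6), and the replication clamp gene Pcna stood at 105 against 132 FPKM. The E2F core, searched as TTTGGCGC or TTTCCCGC, was found in 2 of 32 promoters of lower mitosis genes (6.25%) and 1 of 12 of lower replication genes (8.33%), against 1.30% of all promoters.

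Inhibitors of the cell cycle and quiescence genes had 3 of 13 members higher and 0 lower. Of the 16 that reached 1 FPKM, 10 ratios were above 0 and 6 below. They ran from -1.70 to 1.19 with a median of 0.49. Txnip, a glucose-uptake inhibitor that is high in resting cells, stood at 132 FPKM (119 to 145) against 57.6 (49.5 to 65.8), beside 31.7 and 37.2 FPKM at day 3. The glucocorticoid-induced Tsc22d3 (46.0 against 19.6 FPKM) and the antiproliferative gene Tob1 (33.2 against 14.2 FPKM) were the others, Tob1 not with the pseudocount of 5, while the p21 gene Cdkn1a (207 against 137 FPKM) and the p27 gene Cdkn1b (52.1 against 30.7 FPKM) were not counted. Genes of ribosome biogenesis did not follow the cell cycle genes. Of 24 members 0 were lower and 1 was higher (Polr1b at 6.77 against 2.03 FPKM), a share near the 6.23% of all genes, and Myc stood at 82.5 against 70.9 FPKM.

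Cholesterol synthesis genes had the lowest median of all lists, -1.43. Here 14 of 20 were lower and none higher, all 20 ratios were below 0, and all 20 had reached 5 FPKM in both day 3 libraries, where 3.62% of genes were lower. The pathway runs from acetyl-CoA through mevalonate, isoprenoid units and squalene to lanosterol and then cholesterol, and members of every stage were lower. At its head, Hmgcs1, which makes the precursor of mevalonate, stood at 19.9 FPKM (14.0 to 25.6) against 112 (93.3 to 128), beside 85.8 and 97.5 FPKM at day 3. The mevalonate enzymes Mvk and Mvd stood at 13.4 against 29.2 FPKM and 18.4 against 62.3 FPKM, and Idi1, which interconverts the isoprenoid units, at 17.8 FPKM (13.2 to 22.7) against 54.6 (44.3 to 62.8). Squalene synthase (Fdft1) stood at 13.1 FPKM (9.58 to 16.8) against 46.0 (38.8 to 53.1), squalene epoxidase (Sqle) at 17.3 against 45.0 FPKM and lanosterol synthase (Lss) at 9.25 FPKM (6.33 to 12.0) against 29.3 (24.0 to 34.9).

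After lanosterol, the demethylase genes Cyp51 (21.1 against 54.5 FPKM) and Sc4mol (22.8 FPKM (15.2 to 30.0) against 69.0 (52.6 to 76.2)), Hsd17b7 (2.82 against 9.60 FPKM), and the final reductase gene Dhcr7 (13.2 against 37.4 FPKM) were lower. Hmgcs1 and Fdps had the largest differences, and of the 14 Mvk and Hsd17b7 were not counted with the pseudocount of 5. The 6 not counted were Acat2, Pmvk, Tm7sf2, Nsdhl, Sc5d and Ebp, with log2 ratios from -1.03 (Tm7sf2) to -0.38 (Ebp). The summed level of the 20 genes was 323 FPKM in the primed library, 916 in the plain one, and 802 and 854 FPKM at day 3. As with mitosis, the plain library was close to the cultured cells and the primed one stood apart.

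**Figure D5:**
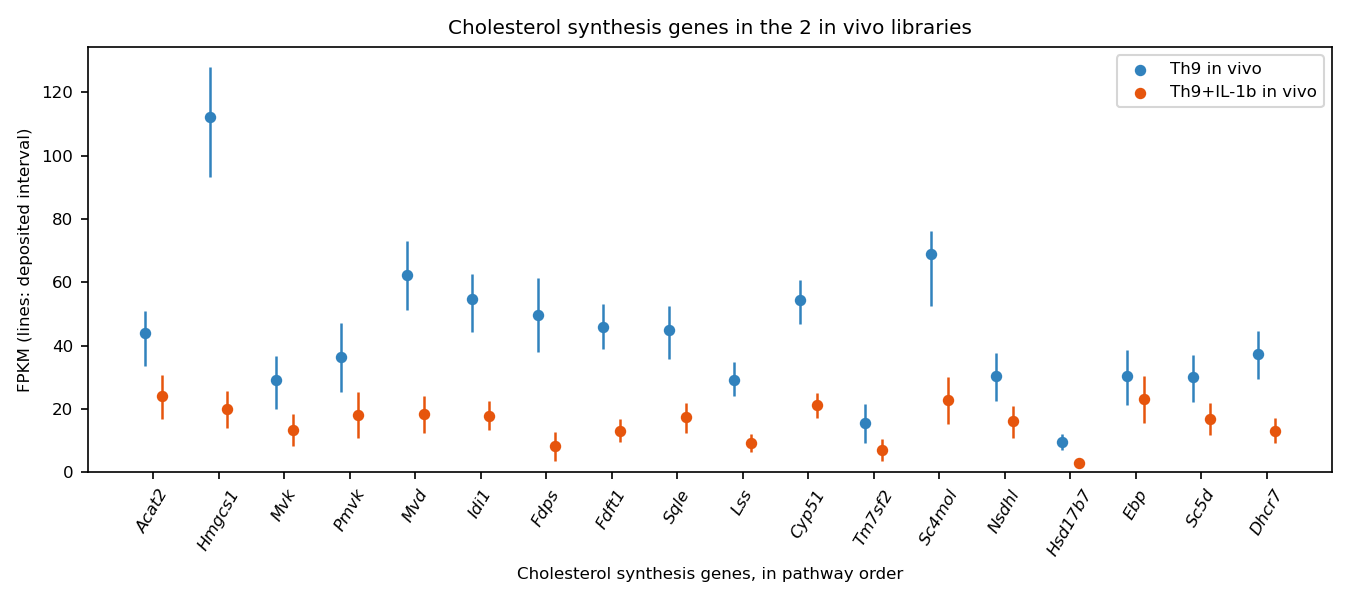
FPKM of 18 of the 20 cholesterol synthesis genes (y axis) in pathway order (x axis) in the plain (blue) and primed (orange) in vivo libraries, with the deposited intervals as vertical lines. The primed value is below the plain one for each gene shown, and the intervals are apart for those counted as lower, with Hmgcs1, Sc4mol and Mvd the most abundant shown in the plain library.

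Sterol synthesis genes are controlled by SREBP factors, which bind sterol response elements. The promoter of Hmgcs1, at chr13:119690101-119690350 on the plus strand on GRCm38.p6, is shown because it holds the core searched as TCACNCCAC, in capitals, ending 128 bases before the start.
Hmgcs1: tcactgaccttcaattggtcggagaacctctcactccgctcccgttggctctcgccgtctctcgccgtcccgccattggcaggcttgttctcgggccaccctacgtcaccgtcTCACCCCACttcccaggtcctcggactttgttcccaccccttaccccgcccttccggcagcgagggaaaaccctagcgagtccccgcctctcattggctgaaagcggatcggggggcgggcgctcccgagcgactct
Of the 14 lower genes, 8 had entries in the promoter table, with 10 promoters, and this was the only 1 with the core (10.0%, against 1.05% of all promoters). Those of Mvd and Lss had 0 matches, and Fdps and Fdft1 had no entry. Other regulators of sterol levels gave a smaller count and no common direction. Of the 15 that reached 1 FPKM, 8 ratios were above 0 and 7 below. They ran from -1.21 to 1.64 with a median of 0.01. Of 13 compared, 3 were lower and 0 higher, among them Insig1 (22.0 against 45.4 FPKM), itself an SREBP target, and the sterol carrier gene Stard4 (7.92 against 19.7 FPKM), and none of the 3 was counted with the pseudocount of 5. Srebf2, which encodes the main sterol-regulatory SREBP, stood at 68.6 FPKM (59.8 to 76.3) against 99.2 (87.9 to 108) and Srebf1 at 38.1 against 47.7 FPKM, neither counted.

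Fatty acid genes had 2 of 12 compared members higher and 2 lower. Of the 13 that reached 1 FPKM, 4 ratios were above 0 and 9 below, with a median of -0.49. Scd2, a stearoyl-CoA desaturase, stood at 70.1 FPKM (63.5 to 76.8) against 237 (223 to 251) and was lower, and Scd1, its relative, stood at 155 FPKM (139.8 to 165) against 55.2 (48.0 to 61.8) and was higher. At day 3 Scd2 stood at 133 and 224 FPKM and Scd1 at 14.0 and 23.2 FPKM with and without IL-1β, so both had the larger value without it. The desaturase gene Fads2 was lower (12.4 against 43.6 FPKM) and the elongase gene Elovl1 higher (135 against 67.1 FPKM, at the edge of the rule and not counted with the median ratio scaled to 1), while Fasn (40.6 against 51.6 FPKM) and Acly (46.5 against 85.3 FPKM) were not counted. Scd1 is expressed in alveolar type 2 cells, whose markers were higher in the primed library, and their part in its level was not tested. Of 20 glycolysis genes 1 was lower, Aldoc (6.99 FPKM (3.58 to 10.3) against 31.2 (21.6 to 39.6)), and 0 were higher, a share near the background. Ldha (612 against 569 FPKM), Pkm2 (459 against 459 FPKM) and Gapdh (792 against 879.7 FPKM) were level, and the glucose transporter gene Slc2a1 stood at 70.8 against 37.4 FPKM.

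Metallothionein and oxidative stress genes had 5 of 16 members higher and 0 lower. The metallothioneins Mt1 and Mt2 are small metal-binding proteins induced by zinc, glucocorticoids and inflammatory signals. Mt2 stood at 42.0 FPKM (14.6 to 45.0) against 6.44 (1.25 to 11.2) and Mt1 at 118 FPKM (49.9 to 97.4) against 40.4 (14.1 to 44.9), beside 13.6 and 4.69 FPKM for Mt2 and 49.7 and 8.14 FPKM for Mt1 at day 3, so the larger value was the one with IL-1β at both stages. Gclc, for glutathione synthesis, stood at 32.4 FPKM (26.1 to 38.3) against 15.2 (11.4 to 19.1) and the heme oxygenase gene Hmox1 at 35.7 against 12.4 FPKM. The fifth, Gpx3, had the largest ratio of all counted genes above 0 in both libraries, 4.36, and was under 0.5 FPKM in both day 3 libraries. Mt1 and Mt2 lie next to each other, and their promoters are shown because both hold the core of the metal response element, TGCACNC or TGCGCNC, in capitals. Mt2 lies at chr8:94172368-94172617 on the plus strand, with 3 matches, of which the one nearest the start is read on the opposite strand, and Mt1 at chr8:94178839-94179088 on the plus strand, with 1, on GRCm38.p6.
Mt2: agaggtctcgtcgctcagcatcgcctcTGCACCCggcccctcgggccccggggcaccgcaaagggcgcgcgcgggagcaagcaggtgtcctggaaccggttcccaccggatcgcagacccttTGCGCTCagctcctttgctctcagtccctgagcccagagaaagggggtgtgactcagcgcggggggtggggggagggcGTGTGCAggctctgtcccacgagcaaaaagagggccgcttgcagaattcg
Mt1: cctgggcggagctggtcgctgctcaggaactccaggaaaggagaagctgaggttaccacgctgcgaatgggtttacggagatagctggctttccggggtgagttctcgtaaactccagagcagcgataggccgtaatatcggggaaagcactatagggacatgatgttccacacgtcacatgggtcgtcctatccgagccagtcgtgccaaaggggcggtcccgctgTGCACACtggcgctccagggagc
This short core is common, in 21.4% of all promoters, and Gpx3 had 0 matches. It was also in 7 of 12 promoters of lower DNA replication genes (58.3%), 11 of 32 of lower mitosis genes (34.4%) and 5 of 14 of higher immediate early genes (35.7%). Of 18 genes of the ATF4 and amino acid stress group, 1 was higher, Cebpb at 69.1 FPKM (49.5 to 77.8) against 31.2 (20.8 to 38.3), near the background share, and Atf4 stood at 268 against 193 FPKM.

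The 15 largest ratios among counted genes above 0 in both libraries mixed genes found at day 3 with genes that the cultured cells barely expressed. Xcl1, Ccl4, Gzma, Gbp2 and Cxcl3 were expressed at day 3 in at least 1 library. The other 10 (Gpx3, Mfap4, Prelp, Ltbp4, Cyr61, Sod3, Bgn, Serping1, Tcf21 and Foxf1a) were under 0.5 FPKM in both day 3 libraries. Most of them encode matrix or secreted proteins or mesenchymal transcription factors. The microfibril gene Mfap4 stood at 125 FPKM (93.5 to 135) against 9.23 (5.05 to 13.3) and the proteoglycan gene Bgn at 69.9 FPKM (55.8 to 80.2) against 5.80 (3.20 to 8.14). Foxf1a, a transcription factor of lung mesenchyme, stood at 15.8 FPKM (7.65 to 23.6) against 0.838 (0 to 1.96), and Tcf21, another, at 15.2 against 0.697 FPKM. They stood with the fibroblast and smooth muscle markers (394.5 against 59.4 FPKM summed), and the part of such cells in them was not tested.

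The 15 smallest ratios were led by Bzrap1, at 2.11 FPKM (1.24 to 2.93) against 27.9 (24.4 to 31.4) and at 5.15 and 14.5 FPKM at day 3, so the smaller value was the one with IL-1β at both stages. Atp6v0c, a subunit of the vacuolar proton pump, came next at 19.8 FPKM (9.01 to 30.0) against 122 (101 to 142). Its pseudogene Atp6v0c-ps2 overlaps it, was listed at 0 in the plain library and stood at 159.5 FPKM in the primed one, and the 2 entries summed to 179 against 122 FPKM, so the single value of Atp6v0c is uncertain. Cell cycle genes made up a further part, with the centromere gene Cenpw (1.07 against 10.3 FPKM), the spindle gene Ska1 (2.30 against 14.1 FPKM), Prr11 (6.24 against 28.2 FPKM), Kif24 (0.633 against 5.44 FPKM) and the mitotic kinase gene Mastl (1.23 against 7.07 FPKM). Hmgcs1, Fdps and Aldoc stand above, and Tsen15 (0.767 against 8.50 FPKM), Lgals7 (7.80 against 40.0 FPKM), Dnajb13 (0.758 against 6.11 FPKM), Gemin8 (5.55 against 24.3 FPKM) and the recombination gene Rad51l1 (1.68 against 8.98 FPKM) were the rest.

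Genes listed at 0 in 1 library call for care. Of the counted genes 59 were so listed, 39 higher and 20 lower, and 35 of the 59 (59.3%) overlap the locus of another gene, against 99 of 780 (12.7%) counted genes above 0 in both. Besides Atp6v0c-ps2 and Rfc4, the 5 most abundant were the haemoglobin gene Hba-a2 at 116 FPKM in the primed library, and, in the plain library, Mxd3, a repressor of Myc-family targets, at 41.0 FPKM and the gene model Gm7367 at 33.0 FPKM. Mxd3 overlaps Prelid1 and Gm7367 overlaps Fam100b. Hba-a2 has near-identical copies.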

How the data were processed

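Poly(A) RNA of 2 in vivo and 2 day 3 libraries was used; the 2 rRNA-depleted libraries taken after 1 h were not analysed here. The authors aligned with TopHat to mm9, per the submitters' processing notes; the sources used here do not give the versions, the tool that made the gene values or the level of the intervals. The deposited values are FPKM per gene, each with an interval, per the file headers, in 23700 entries per file, and the 285 whose status was not OK were dropped. Entries of 1 symbol were summed with their bounds (190 symbols). The pseudocount was 1. Depth is not stated.

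The comparison, its rule and the 41 gene lists (26 gene groups and 15 marker lists) were chosen with earlier results of these data known. Named genes were the 15 highest and 15 lowest counted ratios of genes above 0 in both libraries (without unnamed gene models such as Gm and Rik entries), the 5 most abundant listed at 0 in the other library, every counted list member and up to 4 abundant further members per list. Genes of a list close to its counted members were named beside them after their values were seen. The results of all lists are in the report or the plots of list ratios and marker sums; general epithelium had 2 of 5 compared members higher, plasma cells 1 of 3, MHC class II and dendritic cells 1 of 6, erythroid cells and platelets 2 of 5, mast cells and basophils 1 of 2, and adipocytes and liver 0 compared. A few list members are counted but not reported by name. The counting was tested on simulated data. Of 14 alternatives 13 were planned, and 1, leaving out genes whose locus overlaps another gene, was chosen after seeing the data. The software was matplotlib 3.10.9 for plots, and pandas 2.3.3, numpy 2.4.6, statsmodels 0.14.6 and scipy 1.17.1 under Python 3.11.15. Promoters are those of RefSeq on GRCm38.p6, matched by symbol and trimmed to the 250 bases before the start; gene coordinates come from the deposited files (mm9).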

Additional observations from a re-analysis of the deposited data

Results flagged for a closer look

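Genes counted in opposite directions at day 3 of culture and in vivo were singled out. There were 8, with 1 library per group, and the difference between the stages was not tested. Oip5 had a log2 ratio of -4.62 in vivo and 4.06 at day 3, Exosc6 -4.53 and 5.18, Yipf2 -3.43 and 3.73, 1110054M08Rik -3.14 and 2.72, and Gm7367 -5.09 and 1.57. Rad9 went the other way, 4.75 in vivo and -5.23 at day 3. Each of these 6 was listed at 0 in at least 1 of the 4 libraries and overlaps the locus of another gene, so their values are uncertain and the ratios are no measure of size. Lgals7 (-2.22 in vivo, 1.49 at day 3) and Dnajb13 (-2.02 and 2.35) were above 0 in all 4 libraries and overlap no other gene, but Dnajb13 was not counted in vivo with a pseudocount of 5 (-0.95). Lgals7, a galectin gene, stood at 68.8 and 23.8 FPKM at day 3 with and without IL-1β and at 7.80 FPKM (1.13 to 13.6) against 40.0 (16.3 to 44.2) in vivo. Dnajb13, a cochaperone gene, stood at 7.07 and 0.587 FPKM at day 3 and at 0.758 FPKM (0 to 1.78) against 6.11 (2.43 to 9.73) in vivo.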

How the results depend on the processing

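Under the 14 alternatives 0 results reversed. With a pseudocount of 5 in place of 1, 326 genes were higher and 165 lower. The medians of general epithelium, endothelium, and fibroblast and smooth muscle markers then fell to 0.73, 0.64 and 1.45. With no filter on low values 829 were higher, and with a minimum of 10 FPKM 348. Restricting to genes at 5 FPKM or more in both day 3 libraries left 138 higher genes, with 7 GTPases, 1 antiviral gene, 4 chemokines, and 0 alveolar type 2 and 0 fibroblast and smooth muscle markers. Leaving out genes listed at 0 left 5 higher fibroblast and smooth muscle markers. In these 3 restrictions fewer genes enter the comparison, and the larger pseudocount shrinks ratios by construction. Of the 227 named genes that were counted, 177 kept the call wherever they were compared under the 10 alternatives that set no further limit on genes. Of these alternatives, taking the largest entry of a symbol compared 226 of the named genes and removing the length trend 221. The pseudocount of 5 ended 49 calls, among them Foxp3, Bcl6, Maf, Eomes, Gbp3, Gbp9, Irgm2, Havcr2, Insig1, Mvk, Cdc6 and Dnajb13. Scaling the T cell identity genes to a ratio of 1 (factor 0.944) ended 7, E2f2, Ect2, Insig1, Mvk, Ncapg, Nusap1 and Rpa2, and equal upper quartiles (0.954) the same ones except Mvk. Removing the trend with transcript length ended Atf3, Elovl1 and Rgs1, a median ratio of 1 ended Elovl1, and widening intervals to hold the FPKM ended Scgb1a1. Read depth is unknown, which limits what low genes can show. Among genes at 5 FPKM or more in a library, intervals reached a median 26.8% (plain) and 27.0% (primed) of the FPKM from their middle to either end. Genes under 5 FPKM are not in these medians. With 1 library per group, differences between animals, injections, sorts or library preparations cannot be told apart from IL-1β. No paired analysis was possible because each group has 1 library.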
